A study of Mus musculus with 2 samples.

Results

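The mRNAs of the cytosolic ribosomal proteins were followed in YFP+ cells sorted from the hippocampus of CT and Opa1 cKO mice. Members were chosen by symbol, as Rps or Rpl with a number, with or without a letter a, x, y or l and a further digit, together with Rplp0, Rplp1, Rplp2 and Rpsa. Of 22587 gene symbols 83 had such a name, and the 80 with at least 20 UMIs (unique molecular identifiers, each counting 1 captured mRNA molecule) over both libraries were kept. They are 32 genes of the small subunit, 45 of the large subunit and the 3 genes of the stalk, and 3 of them (Rpl22l1, Rpl7l1 and Rps27l) are paralogs of another member. Rpl3l with 19 UMIs, Rpl10l with 9 and Rpl39l with 3 were below the minimum.

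A cytosolic ribosome joins a small subunit, which reads the mRNA, to a large subunit, which forms the peptide bond, and a flexible stalk on the large subunit recruits the elongation factors. Each ribosome holds nearly the same set of proteins, and most of their mRNAs start with a run of pyrimidines, the terminal oligopyrimidine (TOP) motif, through which mTORC1 signalling controls their translation. Quiescent neural stem cells (NSCs) of the adult hippocampus are known for low protein synthesis, which rises when they are activated, and the integrated stress response (ISR) lowers translation initiation while it induces the targets of ATF4.

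CT mice carried Nestin-CreERT2 and the ROSA26YFP reporter without floxed Opa1, and Opa1 cKO mice carried both together with floxed Opa1, which encodes a protein of inner mitochondrial membrane fusion. The labels list the same 3 alleles for both libraries, and the genotype of the CT mice is taken from the study's methods. All mice were given tamoxifen (TAM) from 8 weeks of age, and cells were taken at 12 weeks. Cre acts only where the Nestin promoter is used and in the progeny of those cells, and each genotype is represented by 1 library (10x 3′ v2 chemistry) that pools the viable YFP+ cells of several mice. With 1 library per genotype no p-value is given, and mouse, day of sorting and library cannot be told apart from the genotype. The 95% intervals given below cover counting error only.

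The CT library held 4634 cell barcodes and the Opa1 cKO library 6475, of which 4186 and 6121 passed the limits on genes and mt- UMIs and 1790 and 3764 also had a YFP UMI. The study states more cells for both genotypes than its own filters leave here. Median depth after filtering was 2555 UMIs per cell in CT and 3008 in Opa1 cKO, and 9 of the retained barcodes occurred in both libraries. Levels are given as CPM, the UMIs of a gene scaled to a total of 1e+06 UMIs from genes outside the mitochondrial genome (mt- genes). Cells were clustered without the ribosomal protein and mt- genes, and 7 of 8 clusters were named from lists of markers (the list of radial glia or activated NSCs gives the activated NSC-like class). The NSC pool-like cluster (cluster 0), led by Apoc1, Etnppl and Tlr3, held 1324 CT and 814 Opa1 cKO cells. All 20 markers of its list were detected in both libraries, as they also were in progenitor and neuron-like cells. No separate list of astrocyte markers was used, and the NSC pool list itself holds genes of astrocytes, such as Aldoc, Aqp4, Slc1a2, Gja1 and Slc7a10. NSCs and astrocytes were thus not told apart in this class, which may hold either or both. Cluster 1, with 22 CT and 1873 Opa1 cKO cells, had stress genes at its head such as Nupr1, Gdf15, Ddit3, Chac1 and Trib3, and stayed unnamed by the naming rule. With the NSC pool-like cluster left out of the comparison, a step added after the clusters were seen, the same rule gave cluster 1 that name. It then had 6 markers of the NSC pool list among its 50 leading genes, but cluster 1 was kept apart here. In its Opa1 cKO cells the 20 NSC pool markers were all detected, at a summed 76470 CPM against 111743 CPM in the NSC pool-like cells of that library. Since nearly all cells of cluster 1 came from 1 library, that state and that library cannot be told apart. Opa1 itself had 69 UMIs or 20.1 CPM in CT and 26 UMIs or 10.7 CPM in Opa1 cKO NSC pool-like cells, a log2 ratio of -0.91 (-1.62 to -0.24). The sources used here do not say which exons are removed, so a 3′ tag outside them would not check the label.

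Ribosomal protein mRNA made up the smallest share of the transcriptome in NSC pool-like cells and the largest in progenitor and neuron-like cells, in both libraries. In CT the summed share of the 80 members was 3.15% of UMIs outside mt- genes in NSC pool-like cells, 4.09% in oligodendrocyte-like, 5.22% in mural-like, 5.77% in activated NSC-like, 6.72% in ependymal-like, 7.64% in endothelial-like and 11.3% in progenitor and neuron-like cells. In Opa1 cKO the same classes had 3.25%, 4.47%, 7.52%, 9.55%, 7.88%, 8.36% and 14.6%. The intervals of neighbouring CT classes did not overlap, although the spread between cells was wide. In CT NSC pool-like cells the 10th and 90th percentiles of the share per cell were 2.11% and 4.03%, and in progenitor and neuron-like cells they were 8.36% and 14.1%.

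**Figure D1:**
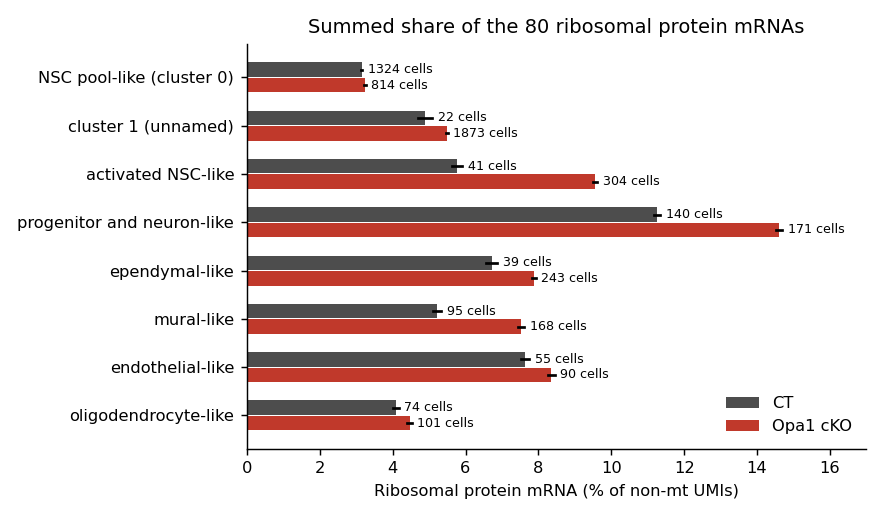
Summed share of the 80 ribosomal protein mRNAs (% of UMIs outside mt- genes, from 0) by class in CT (grey) and Opa1 cKO (red), with the number of cells and black lines for exact 95% counting intervals. The bars of the NSC pool-like class are nearly equal at 3.15% and 3.25%, while cluster 1 in Opa1 cKO stands at 5.49% and the activated NSC-like class differs most between the libraries, at 5.77% and 9.55%.

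Between the genotypes, ribosomal protein mRNA of NSC pool-like cells was nearly the same with cluster 1 kept apart, and not with it joined, as given below. The share of 3.25% (3.23 to 3.27%) in Opa1 cKO against 3.15% (3.14 to 3.17%) in CT is a log2 ratio of 0.04 (0.03 to 0.06). A gene was called past the fold when its log2 ratio exceeded 0.3, a fold of 1.23, in either direction, and a member was measured when it had at least 300 UMIs over the groups compared. Of 78 measured members 8 were past the fold upward, against 12.1% of all 3132 measured genes, and 5 downward, against 19.2%. The median log2 ratio was 0.07 over the members and 0.00 over all measured genes, and it differed little between the small subunit (0.08) and the large subunit (0.07). Both shares of called members lay below those of all genes. The summed NSC pool markers stood at 104881 CPM in CT against 111743 in Opa1 cKO, and 5 red blood cell markers at 341 and 9.86 CPM, whose part in these ratios was not tested.

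The members past the fold upward were Rpl9, Rpl7l1, Rps15a, Rps4x, Rps6, Rps7, Rpl7 and Rpl5, of which Rpl9 was not higher once its near-identical copies were added to it. Rps6, whose product is phosphorylated by the S6 kinases, had 298 CPM in CT against 374 in Opa1 cKO, for a log2 ratio of 0.33 (0.20 to 0.46). Rps4x, the X-linked gene of a small subunit protein, stood at 286 and 362 CPM (0.34, 0.21 to 0.48), and Rps15a of the small subunit at 320 and 413 CPM (0.37, 0.24 to 0.49). These 3 genes of the small subunit were thus higher by 25.6 to 28.9%. Rpl7 and Rpl5, both of the large subunit, lay just inside the fold at 0.303 and 0.301, and Rpl4 and Rps3 just outside it at 0.28 and 0.27. Rpl7l1, a paralog of Rpl7 with a role in ribosome assembly, had the second-highest ratio of 0.59 (0.27 to 0.91) at only 46.7 and 70.3 CPM.

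The members past the fold downward were Rps10, Rps29, Rpl38, Rps28 and Rpl21. Rps10, which sits near the mRNA entry of the small subunit, had 138 CPM in CT against 85.0 in Opa1 cKO, for a log2 ratio of -0.70 (-0.94 to -0.46). Rps29, a zinc-binding protein of the small subunit, had 949 and 677 CPM (-0.49, -0.57 to -0.40), and Rpl38, known for its part in the translation of Hox mRNAs, had 541 and 389 CPM (-0.48, -0.59 to -0.36). The same genes were low in other classes of the Opa1 cKO library, as given below class by class. Rps28, near the mRNA exit of the small subunit, had 442 and 331 CPM, and Rpl21 had 602 and 458 CPM.

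Restricting both libraries to cells in which mt- genes made up 2% or more of UMIs left 1312 CT and 722 Opa1 cKO NSC pool-like cells, and the shares were then 3.16% and 3.18%. The log2 ratio was 0.012 (-0.0018 to 0.026), with 3 of 78 measured members past the fold upward (12.1% of all genes) and 6 downward (20.8%). Without the YFP filter, a setting in which a pair of clusters related to the NSC pool stayed unnamed, the log2 ratio of all NSC pool-like cells was -0.13 and thus of the opposite sign. In either setting the difference was small against the differences between classes.

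**Figure D2:**
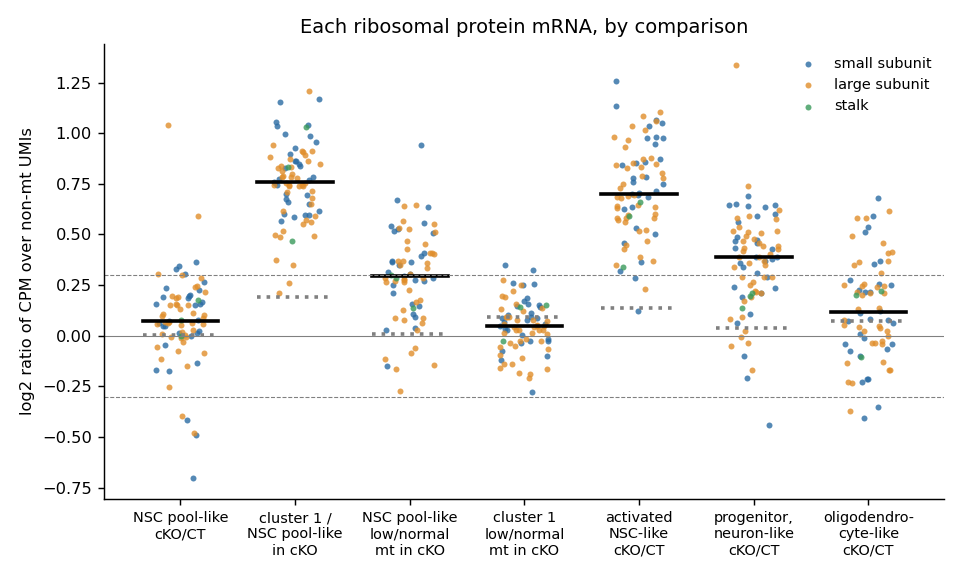
log2 ratio of CPM for each measured ribosomal protein mRNA in 7 comparisons (cKO/CT within a class, cluster 1 over NSC pool-like cells, low over normal mt- share), coloured by subunit. Black bars are the medians over the members, dotted grey bars the medians over all measured genes, and dashed lines the log2 limit of 0.3. The members of cluster 1 over NSC pool-like cells all lie above 0, with a median of 0.76, while those of low over normal mt- share within cluster 1 lie around 0.05.

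The starts of 6 of these genes are shown because the start carries the TOP motif and because they include members with high and with low ratios. Each line gives the 30 bases before and the first 15 transcribed bases after the RefSeq start of the gene, 5′ to 3′ on the strand of the transcript (GRCm38.p6), and capitals mark the longest run of C and T that begins with C close to the start. Rps6 lies at chr4:86857353-86857397 (minus strand), Rps15a at chr7:118116133-118116177 (minus), Rpl13a at chr7:45128731-45128775 (minus), Rps10 at chr17:27635230-27635274 (minus), Rpl38 at chr11:114668550-114668594 (plus) and Rpl28 at chr7:4792935-4792979 (plus).
Rps6: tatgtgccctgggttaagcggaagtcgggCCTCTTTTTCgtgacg
Rps15a: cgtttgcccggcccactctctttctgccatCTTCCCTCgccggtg
Rpl13a: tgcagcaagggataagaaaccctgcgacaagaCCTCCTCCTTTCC
Rps10: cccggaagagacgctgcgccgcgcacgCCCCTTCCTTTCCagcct
Rpl38: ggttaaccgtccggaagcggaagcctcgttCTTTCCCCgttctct
Rpl28: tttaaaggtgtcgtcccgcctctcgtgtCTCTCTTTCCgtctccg

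Only genes with a run of this kind were eligible for printing, so that all 6 hold one follows from the choice. The runs have 8 to 14 bases (that of Rpl13a runs 1 base past the printed window). In Opa1 cKO NSC pool-like cells the level was higher than in CT for Rps6 and Rps15a and lower for Rps10 and Rpl38. Over the RefSeq table, windows of 300 bases (250 before and 50 after the start) were found for 60 of the 80 members, 71 windows in all, and 20 members had none. A run of at least 7 pyrimidines that starts with C within 10 bases of the start was in 40.8% of the members' windows and in 12.2% of all 32851 windows. The hexamer CCGGAA, searched on both strands, was in 49.3% of the members' windows and in 14.9% of all windows. These matches are descriptions of the letters in these windows.

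Within the Opa1 cKO library, ribosomal protein mRNAs were higher in cluster 1 than in NSC pool-like cells, and nearly all of them took part. The summed share was 5.49% (5.47 to 5.51%) in 1873 cells of cluster 1 against 3.25% in 814 NSC pool-like cells, a log2 ratio of 0.76 (0.75 to 0.77) or 1.69-fold. Of 79 measured members 77 were past the fold upward, against 38.7% of all 4419 measured genes, and 0 downward, against 12.4%. The median was 0.76 over the members and 0.19 over all measured genes, and 32 of 32 genes of the small subunit and 42 of 44 of the large subunit were past the fold. Median depth was 3032 UMIs per cell in cluster 1 and 2928 in the NSC pool-like cells, and the shares at matched depth stayed apart. In cells of 2000 to 4000 UMIs they were 5.21% and 3.13%.

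The genes named in this comparison were chosen after their values were seen. Rpl13a, a large subunit protein also known from the interferon response, had the highest ratio, with 205 CPM in NSC pool-like cells and 472 CPM in cluster 1 (1.21, 1.07 to 1.35). Rps4x followed with 362 and 816 CPM (1.17, 1.07 to 1.28), and Rps12 of the small subunit with 112 and 248 CPM (1.15, 0.97 to 1.34). Their levels were thus more than 2-fold higher. Rps19, the gene first found mutated in Diamond-Blackfan anaemia, had 551 and 1133 CPM (1.04, 0.95 to 1.12), and Rps6 had 374 and 746 CPM (1.00, 0.89 to 1.10). At the other end Rpl22l1 had 359 and 417 CPM (0.21, 0.10 to 0.33) and Rpl28 of the large subunit 470 and 563 CPM (0.26, 0.17 to 0.36). Those 2 genes were the members short of the fold, and Rpl7l1 at 0.35 and Rpl5 at 0.38 were just past it.

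The cells of cluster 1 also had fewer mt- UMIs, with a median of 0.488% of UMIs per cell against 5.05% in the NSC pool-like cells of the same library. Inside cluster 1 the ribosomal protein share did not follow the mt- share in 1 direction. It was 5.43% in 1543 cells under 1% mt- UMIs (low) and 5.29% in 133 cells at 2% or more (normal), a log2 ratio of 0.04 (0.02 to 0.06), but it was 6.16% in the 197 cells in between. Between low and normal cells, of 78 measured members 2 were past the fold upward, against 24.7% of all genes, and 0 downward, against 8.52%. The 2 were Rps12 (196 CPM at normal and 250 CPM at low mt- share) and Rps2 (420 and 526 CPM), both of the small subunit and both named after their values were seen.

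The 22 CT cells of cluster 1 had a ribosomal protein share of 4.89% (4.69 to 5.09%), above the 3.15% of the CT NSC pool-like cells, at a median mt- share of 5.29%. Their median depth of 1562 UMIs was lower than the 2498 UMIs of the CT NSC pool-like cells. Against CT NSC pool-like cells, the Opa1 cKO cells of cluster 1 had a log2 ratio of 0.80 (0.79 to 0.81), with 74 of 79 measured members past the fold upward (38.8% of all genes) and 0 downward (22.2%). Had cluster 1 been joined to the NSC pool, an alternative chosen after the clusters were seen, the log2 ratio of Opa1 cKO over CT would be 0.62 (0.61 to 0.62) in place of 0.04, with 67 of 80 members past the fold upward (31.4% of all genes) and 0 downward (22.1%). In the joined cells of Opa1 cKO, low over normal mt- share gave 0.61, with 75 of 79 members upward (37.7% of all genes) and 0 downward (10.7%). Of the 1618 low cells 1543 were of cluster 1, and of the 855 normal cells 722 were of cluster 0. That ratio is thus mostly one between the clusters, and within them low over normal was 0.04 (cluster 1) and 0.29 (cluster 0). The near equality of the genotypes thus holds for the NSC pool-like cells of cluster 0 and not with cluster 1 joined.

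Among Opa1 cKO NSC pool-like cells, those with a low mt- share had more ribosomal protein mRNA. The 75 cells under 1% mt- UMIs had a share of 3.90% (3.81 to 3.99%), and the 722 cells at 2% or more had 3.18% (3.16 to 3.21%), a log2 ratio of 0.29 (0.26 to 0.33). Of 73 measured members 35 were past the fold upward, against 24.2% of all 1323 measured genes, and 0 downward, against 20.7%. The median was 0.30 over the members and 0.01 over all genes. The low cells were shallower, with a median of 2069 UMIs against 3039, while the share rose with depth among NSC pool-like cells, from 2.91% under 2000 UMIs to 3.52% over 4000 UMIs in Opa1 cKO and from 2.75% to 3.51% in CT. Of the 814 cells 11 lay between 0.8% and 1.2% mt- UMIs, and 2 CT cells were under 1%, too few for a comparison in CT.

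Rps15a had the highest ratio of low over normal cells, with 742 and 386 CPM (0.94, 0.67 to 1.21), followed by Rps19 with 844 and 531 CPM (0.67, 0.41 to 0.92). Rpl4, whose product lines the peptide exit tunnel, had 434 and 277 CPM (0.64, 0.28 to 0.99), Rpl13a had 302 and 194 CPM (0.64, 0.20 to 1.06) and Rps15, of the head of the small subunit, had 633 and 408 CPM (0.63, 0.34 to 0.92). For these 5 genes the interval stayed above 0. Lowest were Rpl36 with 559 and 676 CPM (-0.27, -0.58 to 0.02), Rpl11, which binds Mdm2 with Rpl5 and the 5S rRNA, with 451 and 505 CPM (-0.17), Rps9 with 491 and 545 CPM (-0.15), Rpl22l1 with 325 and 360 CPM (-0.15) and Rpl28 with 439 and 476 CPM (-0.11). The intervals of these lowest genes included 0, and their low groups held fewer than 100 UMIs each.

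By finer steps, the share of Opa1 cKO NSC pool-like cells was 3.88% under 0.5% mt- UMIs, 3.92% from 0.5 to 1%, 3.21% from 2 to 4%, 3.16% from 4 to 8% and 3.31% from 8 to 20%. In CT it was 2.95%, 3.15% and 3.47% over the last 3 steps and thus rose with the mt- share. In cluster 1 it was highest at 1 to 2% mt- UMIs, at 6.16%, and lowest at 4 to 8%, at 4.38%. At every step shared by both, cluster 1 lay above the NSC pool-like cells of its library.

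**Figure D3:**
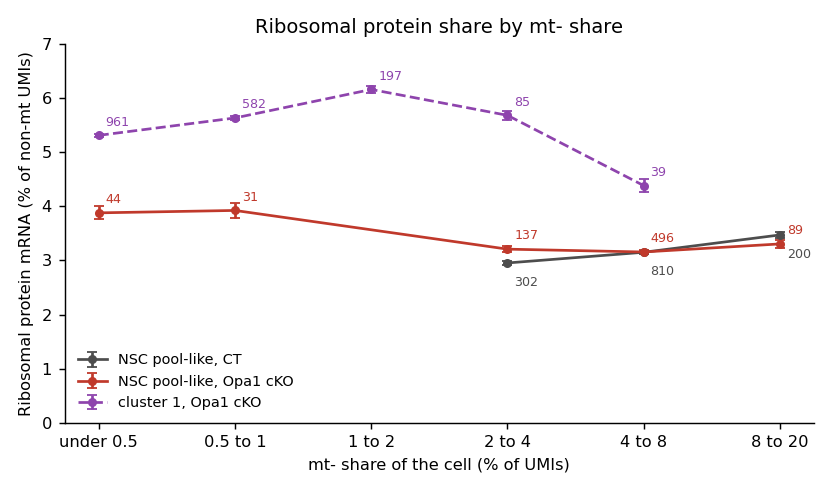
Summed ribosomal protein share (% of UMIs outside mt- genes) against the mt- share of the cell (% of UMIs, in 6 steps) for NSC pool-like cells of CT (grey) and Opa1 cKO (red) and for cluster 1 of Opa1 cKO (purple, dashed), with exact 95% counting intervals and the number of cells. Steps with fewer than 20 cells are left out. Cluster 1 lies above the other lines throughout, from 4.38% to 6.16%.

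Activated NSC-like cells differed most between the libraries. Their share was 5.77% (5.63 to 5.91%) in 41 CT cells and 9.55% (9.49 to 9.62%) in 304 Opa1 cKO cells, a log2 ratio of 0.73 (0.69 to 0.77). A minimum of 100 UMIs was used for every comparison that involves a class other than the NSC pool and cluster 1. With it, 75 of 78 measured members were past the fold upward, against 36.7% of all 1871 measured genes, and 0 downward, against 19.8%. The median over all measured genes was itself at 0.14, and the median over the members at 0.70. Rps15a had 581 CPM in CT against 1391 in Opa1 cKO (1.26, 0.89 to 1.65), and Rps6 had 696 and 1443 CPM (1.05, 0.71 to 1.41). The genes that were low in NSC pool-like cells were at the bottom here too but not below CT, as Rps10 had 172 and 187 CPM (0.12) and Rpl38 972 and 1143 CPM (0.23).

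The class was led by Frzb and Islr and also by C1qb and Ifit3b, and the summed level of 9 microglia markers was 85.8 CPM in its CT cells (6 of the 9 at 0) and 409 CPM in its Opa1 cKO cells. Other lists moved as well, with ependymal markers at 219 and 442 CPM, oligodendrocyte precursor markers at 448 and 131 CPM and NSC pool markers at 67048 and 55314 CPM, and their part in the ratio was not tested. With the cells that had a C1q UMI left out, the log2 ratio was 0.73, as large as with them. The share per cell spread widely, from 3.13% to 9.90% (10th to 90th percentile) in CT and from 4.95% to 15.1% in Opa1 cKO, so that the 2 libraries overlapped. Clustered on all genes, the ratio was 0.57.

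Here the mt- share went with ribosomal protein mRNA in the opposite direction to the NSC pool-like cells of Opa1 cKO. Opa1 cKO activated NSC-like cells had 7.38% at low mt- share (76 cells), 9.44% in between (109 cells) and 10.7% at normal mt- share (119 cells). The log2 ratio of low over normal was -0.54 (-0.57 to -0.51), with 68 of 76 measured members past the fold downward, against 24.8% of all genes, and 0 upward, against 18.5%. Median depth was 2150 UMIs in the low and 3026 in the normal cells, and the part of depth in this difference was not tested. Rpl12 of the large subunit had the lowest ratio, with 229 CPM at low and 442 CPM at normal mt- share (-0.95, -1.49 to -0.44), and Rpl41, the smallest ribosomal protein, the highest, with 3887 and 4309 CPM (-0.15, -0.28 to -0.02). Every measured member was thus lower in the low cells of this class.

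Progenitor and neuron-like cells had the highest level in either library and a higher one in Opa1 cKO. The share was 11.3% (11.2 to 11.3%) in 140 CT cells and 14.6% (14.5 to 14.7%) in 171 Opa1 cKO cells, a log2 ratio of 0.38 (0.36 to 0.39). Of 79 measured members 49 were past the fold upward, against 27.4% of all 2015 measured genes, and 1 downward, against 25.4%. The make-up of the class differed between the libraries as well, with its own 18 markers at a summed 24161 CPM (CT) and 18039.5 CPM (Opa1 cKO), the NSC pool markers at 6869 and 10116 CPM and 8 mature neuron markers at 336 and 657 CPM, and the part of this in the ratio was not tested. The highest were Rpl9, Rpl10a and Rps15a. Rpl9 had 1.34 on its own and 0.37 (0.15 to 0.60) when summed with its near-identical copies. Rpl10a, of the L1 stalk of the large subunit, had 832 CPM in CT against 1388 in Opa1 cKO (0.74, 0.56 to 0.92), and Rps15a had 1343 and 2164 CPM (0.69, 0.55 to 0.83). The lowest were Rps10 with 371 and 274 CPM (-0.44, -0.76 to -0.11), Rps29 with 2240 and 1936 CPM (-0.21, -0.33 to -0.09) and Rpl21 with 1406 and 1250 CPM (-0.17, -0.33 to -0.01), 3 of the 5 genes that were lowest in NSC pool-like cells. By mt- share, Opa1 cKO cells of this class had 15.1% at low (82 cells) and 12.7% at normal (34 cells), a log2 ratio of 0.25 (0.23 to 0.28), with 28 of 77 measured members past the fold upward (17.8% of all genes) and 0 downward (18.9%).

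The other classes were also higher in Opa1 cKO, by different amounts. The log2 ratio was 0.53 (0.49 to 0.56) in mural-like cells, with 57 of 76 measured members past the fold upward (34.3% of all genes) and 0 downward (17.6%). It was 0.23 (0.19 to 0.27) in ependymal-like cells, with 30 of 77 upward (30.4%) and 2 downward (20.1%). In endothelial-like cells, a cluster that haemoglobin genes also lead, it was 0.13 (0.10 to 0.16), with 20 of 77 upward (23.4%) and 4 downward (20.6%), and in oligodendrocyte-like cells 0.13 (0.09 to 0.16), with 17 of 74 upward (26.3%) and 3 downward (18.9%). In endothelial-like and oligodendrocyte-like cells the members' shares thus lay near or below those of all genes, and in ependymal-like cells the upward share of 39.0% lay above. The median over all measured genes was 0.13 in mural-like cells, against 0.58 over the members.

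Within Opa1 cKO, low mt- cells also had more ribosomal protein mRNA in ependymal-like cells (8.10% in 173 low and 6.73% in 26 normal cells) and in mural-like cells (9.56% in 48 low and 6.41% in 99 normal cells). The log2 ratios were 0.27 (0.23 to 0.30), with 33 of 77 measured members upward (31.1% of all genes) and 1 downward (15.9%), and 0.58 (0.54 to 0.61), with 60 of 71 upward (30.6%) and 0 downward (24.7%). The normal ependymal-like cells of Opa1 cKO were level with the 6.72% of CT. In the other named classes outside the NSC pool, normal cells of Opa1 cKO stayed above normal cells of CT. Shares were 6.41% against 5.30% in mural-like, 10.7% against 5.77% in activated NSC-like and 12.7% against 11.4% in progenitor and neuron-like cells. They were 8.22% against 7.66% in endothelial-like and 4.47% against 4.09% in oligodendrocyte-like cells.

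The ratios of single genes were alike in some members across classes and unlike in others. Rps28 was below CT in 6 of the 7 classes, from -0.55 in ependymal-like to 0.28 in activated NSC-like cells. Rps29, Rpl38 and Rpl21 were below CT in 5 of 7. Of the 74 members measured in all 7 classes, 36 were above CT in each and 0 below CT in each. The same count was not made over all genes, so it cannot be read as particular to the members. The median over all measured genes was itself above 0 in every class, from 0.0048 in NSC pool-like to 0.14 in activated NSC-like cells. Rps15a, Rps4x and Rps6 were among the 36, from 0.32 to 1.26, from 0.34 to 0.98 and from 0.11 to 1.05. Each ratio compares the same 2 libraries, and a difference between the libraries that touches a gene in every cell cannot be told apart from one of the genotype.

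**Figure D4:**
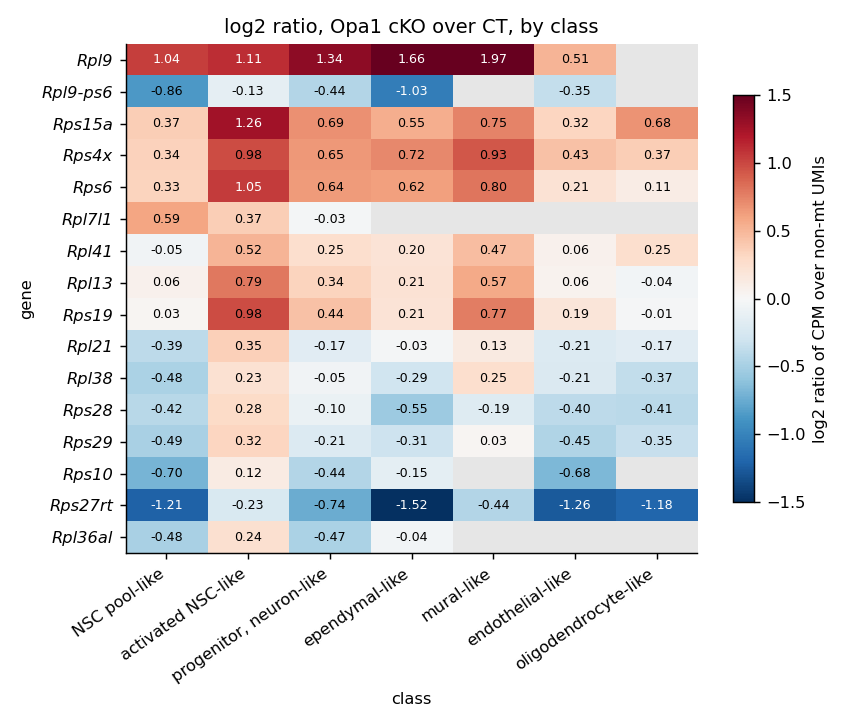
log2 ratio of CPM, Opa1 cKO over CT, for 13 members named in the text and 3 genes outside the rule (Rpl9-ps6, Rps27rt and Rpl36al) in 7 classes. Red is higher and blue lower in Opa1 cKO, the colour scale ends at 1.5 in either direction, and grey marks fewer UMIs than the minimum. Rows from Rps15a to Rps6 are red in every class, Rps28 is blue in all but the activated NSC-like class, and Rpl9 and Rpl9-ps6 have opposite colours.

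Between classes of CT, all 80 members were higher in progenitor and neuron-like than in NSC pool-like cells. The log2 ratio of the sum was 1.84 (1.82 to 1.85). All 80 were past the fold, against 44.4% of all 5694 measured genes upward (39.3% downward), and the median was 1.81, with 2.05 in the small and 1.74 in the large subunit. Rplp0, which anchors the stalk, had the widest range over the CT classes, 8.05-fold, from 297 CPM in NSC pool-like to 2389 CPM in progenitor and neuron-like cells. Next came Rpl4 at 6.88-fold (238 to 1634 CPM), Rps4x at 5.79-fold (286 to 1654 CPM), Rps3a1 at 5.59-fold (241 to 1348 CPM) and Rpsa, also known as the laminin receptor precursor, at 5.55-fold (166 to 919 CPM). Each of these 5 was lowest in NSC pool-like and highest in progenitor and neuron-like cells. Rpl36 had the narrowest range, 2.04-fold.

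Activated NSC-like cells of CT lay between, with a log2 ratio over NSC pool-like cells of 0.87 (0.83 to 0.91), and 76 of 79 measured members were past the fold upward (39.4% of all genes) and 0 downward (31.4%). Within Opa1 cKO the ratio of progenitor and neuron-like over NSC pool-like cells was 2.17 (2.16 to 2.18), with 79 of 79 measured members upward (44.7% of all genes) and 0 downward (37%). The order of these 3 classes was thus the same in both libraries. The list behind the activated NSC-like class joins genes of radial glia and of activated NSCs. Mki67 and Top2a were not detected in that class in either library, and whether its cells were activated was not tested.

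The members that were highest in cluster 1 over NSC pool-like cells of Opa1 cKO were often those that were highest in progenitor and neuron-like over NSC pool-like cells of CT. Over 79 members the Pearson correlation of the 2 log2 ratios was 0.63 and the Spearman correlation 0.67. The 2 ratios share no cells, but the points are genes of the same pair of libraries and are not independent replicates. Rps4x was high in both (1.17 in cluster 1, 2.53 in progenitor and neuron-like cells) and so was Rplp0 (1.03 and 3.01). Rpl28 (0.26 and 1.17) and Rpl22l1 (0.21 and 1.40) were low in both. The ratios of cluster 1 were smaller for every one of the 4.

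**Figure D5:**
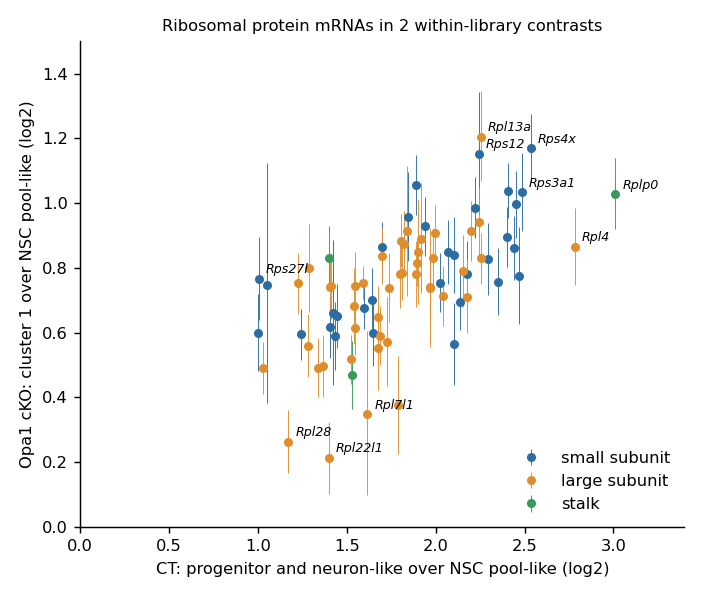
log2 ratio of each of 79 ribosomal protein mRNAs in CT progenitor and neuron-like over NSC pool-like cells (x) and in Opa1 cKO cluster 1 over NSC pool-like cells (y), coloured by subunit, with 95% counting intervals on y. All points lie above 0 on both axes. Rplp0 and Rpl4 are farthest right, at 3.01 and 2.78, and Rpl13a is the highest, at 1.21.

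The 3 stalk genes did not move together. Rplp0 went from 336 CPM in NSC pool-like to 685 CPM in cluster 1 of Opa1 cKO (1.03, 0.92 to 1.14), Rplp1 from 424 to 754 CPM (0.83, 0.73 to 0.93) and Rplp2 from 396 to 548 CPM (0.47, 0.36 to 0.57), and the interval of Rplp2 lay below the other 2. Between the genotypes in NSC pool-like cells all 3 were short of the fold, at 0.18 (0.04 to 0.31), 0.00048 (-0.12 to 0.12) and 0.08 (-0.04 to 0.20). The members with most UMIs in each subunit were Rps14 and Rps19, and Rpl41 and Rpl13. In NSC pool-like cells Rps14 had 875 CPM in CT against 972 in Opa1 cKO, Rps19 had 542 and 551 CPM, Rpl41 had 1478 and 1425 CPM and Rpl13 had 806 and 840 CPM, each short of the fold.

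The paralogs were expressed beside their partners in every class. Rpl22l1, whose transcript is 75.5% identical to that of Rpl22 over 294 aligned bases, made up 71.4% (69.0 to 73.7%) of the UMIs of the pair in CT NSC pool-like cells and 72.0% (69.4 to 74.5%) in Opa1 cKO. In cluster 1 of Opa1 cKO it was 61.7% (60.2 to 63.1%), where Rpl22 had 259 CPM against 140 CPM in the NSC pool-like cells (0.89, 0.72 to 1.06). Rps27l, known as a target of p53, was at 210 and 248 CPM in NSC pool-like cells of the 2 genotypes. Paired with the Rps27 feature alone, it made up 81.1% (78.4 to 83.6%) in CT and 88.8% (86.2 to 91.1%) in Opa1 cKO. Most UMIs of the Rps27 sequence, however, were given to Rps27rt, an identical copy. Rps27 and Rps27rt together had 1152 UMIs against 721 of Rps27l in CT, and 378 against 603 in Opa1 cKO. With the copy counted, Rps27l thus held fewer UMIs than its partner in CT and more in Opa1 cKO. How many reads of the identical copies went uncounted was not checked, so these UMIs do not settle which gene has more mRNA. Rpl7l1 was the minor gene of its pair with Rpl7, at 13.5% (11.6 to 15.6%) in CT and 13.8 to 18.3% in Opa1 cKO. In NSC pool-like cells the intervals of the genotypes were apart for Rps27l, whose share rests on Rps27 and on how reads were given to its identical copy described next, and overlapped for the other 2 pairs. In ependymal-like cells they were apart for Rpl22l1, at 53.3% (43.4 to 63.0%) in CT and 68.3% (65.6 to 71.0%) in Opa1 cKO. The CT value rests on 57 UMIs of Rpl22l1 and 50 of Rpl22. In oligodendrocyte-like cells the share of Rpl22l1 went the other way, at 71.4% (62.4 to 79.3%) in CT and 58.2% (50.8 to 65.3%) in Opa1 cKO, with overlapping intervals.

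Some genes share nearly all of their sequence with another annotated gene. Their reads can be given to either copy or go uncounted, which was not checked. Rpl9 (chr5:65388364-65391444, GRCm38) and the single-exon gene Rpl9-ps6 (chr19:32465865-32466578) differ at 1 of 692 aligned transcript bases. In NSC pool-like cells Rpl9 had 49.6 CPM in CT against 102 in Opa1 cKO, the highest ratio of all members (1.04, 0.75 to 1.33), while Rpl9-ps6 had 116 and 63.7 CPM (-0.86, -1.14 to -0.59). Rpl9-ps6 took 70.0% of the pair's UMIs in CT and 38.5% in Opa1 cKO, and in the 6 other named classes it took 60.5 to 78.8% in CT and 35.9 to 46.8% in Opa1 cKO. Summed with Rpl9-ps1, the Rpl9 features had a log2 ratio of -0.0076 (-0.19 to 0.18) in NSC pool-like cells.

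Rps27 and Rps27rt (chr9:114982366-114982739) are identical over 341 aligned bases. Rps27 had 49.0 and 31.2 CPM and Rps27rt 287 and 124 CPM in CT and Opa1 cKO NSC pool-like cells, and their sum had a log2 ratio of -1.11 (-1.29 to -0.95). Unlike Rpl9, the sum was lower too, and it was also lower in the 6 other named classes, from -1.35 in ependymal-like to -0.17 in activated NSC-like cells. The interval included 0 in activated NSC-like (-0.57 to 0.26) and in mural-like cells (-0.76 to 0.01). Rpl10 and Rpl10-ps3 are identical over 740 aligned bases, and their sum had a ratio of -0.32 (-0.59 to -0.06) in NSC pool-like cells.

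Ribosomal genes whose symbols the rule does not cover behaved in mixed ways in NSC pool-like cells. Fau, which encodes a ubiquitin-like protein fused to a small subunit protein, had 579 CPM in CT against 611 in Opa1 cKO (0.08, -0.02 to 0.17). Rack1, a scaffold on the small subunit, had 91.0 and 115 CPM (0.34, 0.10 to 0.58), and Rpl36al had 131 and 93.7 CPM (-0.48, -0.72 to -0.25).

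Genes of the translation machinery outside the ribosome were also higher in cluster 1, but unlike the ribosomal proteins they were among the genes by which the cells were clustered, so their values describe the cluster. In this comparison 38.7% of all measured genes were past the fold upward and 12.4% downward. Of 20 elongation factors and other TOP mRNAs measured in cluster 1 over NSC pool-like cells, 16 were past the fold upward and 0 downward, with a median of 0.47. Eef1a1, the factor that brings aminoacyl-tRNA to the ribosome, had 452 and 984 CPM (1.12, 1.03 to 1.22), and Eef2, which moves the ribosome along, had 198 and 383 CPM (0.95, 0.81 to 1.09). Of 29 measured initiation factors 21 were upward and 1 downward, with a median of 0.53, with Eif4ebp1, a repressor of eIF4E and 1 of the 10 leading genes of cluster 1, at 53.0 and 268 CPM (2.34, 2.08 to 2.61). Of 24 measured ribosome biogenesis genes 18 were upward and 0 downward, with a median of 0.50, led by Rrs1 with 90.4 and 184 CPM (1.02, 0.81 to 1.24). All 3 medians lay above the 0.19 of all genes and below the 0.76 of the ribosomal proteins. The 6 ISR genes chosen by the study were all upward, with a median of 1.73, and also entered the clustering.

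Between the genotypes in NSC pool-like cells, 6 of 18 measured elongation factors and other TOP mRNAs were past the fold upward (12.1% of all genes) and 0 downward (19.2%), with a median of 0.24. Tpt1, the translationally controlled tumour protein, had 256 and 365 CPM (0.51, 0.38 to 0.65). Of 23 initiation factors 3 were upward and 4 downward (median 0.13), near the shares of all genes, and of 10 ribosome biogenesis genes 2 were upward and 0 downward (median 0.00022). In progenitor and neuron-like cells 13 of 19 measured elongation factors and other TOP mRNAs were upward (27.4% of all genes) and 2 downward (25.4%), with a median of 0.38, close to the 0.39 of the ribosomal proteins.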

How the data were processed

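Single-cell RNA-seq was analysed from 1 CT and 1 Opa1 cKO library. Per the labels, the authors aligned to mm10 with Cell Ranger 2.1.1, while the header of the deposited matrices names software version 3.1.0. The deposited values are raw UMI counts per gene and barcode, without normalization. Where a symbol had several identifiers, their counts were added. The filters of the study were kept (more than 600 and fewer than 7500 genes, under 20% mt- UMIs, at least 1 YFP UMI). Cells were clustered with Seurat 5.3.0 and sctransform 0.4.2 in R 4.3.3 (8 dimensions, resolution 0.2), leaving out the members and the mt- genes. A cluster took the name of the marker list with most genes among its 50 leading genes by log2 fold over the other cells, if at least 3 were past a log2 fold of 1. No doublet caller was run, and cells over 8000 UMIs were left out as an alternative.

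UMIs were summed over the cells of a class and library. CPM has exact Poisson, shares exact Clopper-Pearson and log2 ratios exact binomial 95% intervals (scipy 1.17.1, checked on simulated counts), and a list is described by its counts and its median. Gene coordinates and the aligned transcripts are from GENCODE and the windows at the gene starts from RefSeq, all GRCm38. Comparisons were cKO over CT within classes, low over normal mt- share within Opa1 cKO, and cluster 1 over NSC pool-like cells. Named genes were the 5 highest and 5 lowest members of the first 2 comparisons in NSC pool-like cells, the 3 highest and lowest in progenitor and neuron-like cells, the 5 of widest range over CT classes, the stalk, the paralogs with their partners, those with most UMIs, and the ribosomal genes outside the rule, of which 1 is not reported here. Other genes were named after their values were seen. The members and lists were chosen with earlier results of these data known.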

Additional observations from a re-analysis of the deposited data

Results flagged for a closer look

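In 2 members, Opa1 cKO and CT differed past the log2 limit of 0.3 in opposite directions in different classes, each with an interval apart from 0. Members with a smaller difference on either side, such as Rps28 at 0.28 in activated NSC-like cells, are not counted. Rps29, a zinc-binding protein of the small subunit, had a log2 ratio of 0.32 (1229 CPM in CT against 1534 in Opa1 cKO) in activated NSC-like cells and of -0.49 (949 and 677 CPM) in NSC pool-like cells. Rpl35, of the large subunit near the exit of the nascent peptide, had a log2 ratio of 0.63 in activated NSC-like and of -0.37 in endothelial-like cells. With 1 library per genotype these differences between classes were not tested, and no such count over all genes is given beside them.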

How the results depend on the processing

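The share of the ribosomal proteins by class rested on the clustering where all genes entered it, and was then 3.17% (CT) and 3.22% (Opa1 cKO) in the NSC pool-like class and 6.25% and 9.29% in activated NSC-like cells. For Opa1 cKO over CT in NSC pool-like cells (log2 ratio 0.04, 8 members higher and 5 lower), the ratio was 0.00083 with 1 higher in cells of 2000 to 4000 UMIs, 0.020 with 5 higher after clustering on all genes, and -0.13 with 0 higher and 15 lower without the YFP filter. At a log2 limit of 0.5 for a call there were 2 higher and 1 lower, and with cluster 1 joined to the pool the ratio was 0.62 with 67 higher and 0 lower. In cells of normal mt- share (0.012, 3 higher, 6 lower) the ratio was -0.037 with 0 higher at 2000 to 4000 UMIs, -0.015 with 1 higher at limits of 0.5% and 4% mt- UMIs, -0.13 with 0 higher and 15 lower without the YFP filter and 0.15 with 20 higher and 3 lower with cluster 1 joined, while 5 were higher after clustering on all genes and 2 lower at the log2 limit of 0.5. For low over normal mt- share (0.29, 35 higher, 0 lower) the ratio was 0.37 over all UMIs, 0.36 at 2000 to 4000 UMIs and 0.61 with cluster 1 joined (75 higher). The joined ratio mostly compares cells of cluster 1 with cells of cluster 0. There were 15 higher at the log2 limit of 0.5, and 2 lower at a minimum of 20 UMIs, 1 lower at 2000 to 4000 UMIs and 3 lower at the other mt- limits. In activated NSC-like cells (0.73) the ratio was 0.79 over all UMIs and also over UMIs outside the members, 0.59 after centring on the median of all genes and 0.57 after clustering on all genes. In progenitor and neuron-like cells (0.38, 49 higher, 1 lower) it was 0.42 over all UMIs, 0.48 at 2000 to 4000 UMIs, 0.40 with cells weighted equally and without the YFP filter, 0.34 after centring, 0.43 over UMIs outside the members and 0.41 without cells over 8000 UMIs, with 20 higher and 0 lower at the log2 limit of 0.5. The cause of these changes was not tested. The joining of cluster 1 and the leaving out of C1q+ cells were chosen after seeing the data. Centring lowers every ratio by the median of all genes, which was 0.14 in activated NSC-like cells, 0.13 in mural-like cells and 0.19 in cluster 1 over NSC pool-like cells.

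With 1 library per genotype, no value has a replicate error, and the intervals cover counting alone. No paired analysis was possible because each genotype had 1 library. Without the YFP filter 2 of 3 clusters related to the NSC pool stayed unnamed, so that setting compares other cells. The 41 activated NSC-like cells of CT and the 75 NSC pool-like cells of low mt- share limit what single members show there.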
